A study of Mus musculus with 18 samples.

Results

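Alternative last exons are the different 3′ terminal exons with which transcripts of the same gene can end. They were taken from RNA-seq of mouse peritoneal macrophages, in which every last exon of an expressed transcript has a row with its position, its strand and an FPKM value (fragments normalised to transcript length and library size, here summed over the transcripts that carry the exon). Last exons were matched across the libraries by chromosome, start, end and strand, and those of genes with at least 2 distinct last exons over the 18 libraries were kept. This gave 9153 last exons in 3269 genes, out of 18422 last exons with a gene number in 12538 genes. The other 9269 genes had 1 last exon each. The quantity followed below is the share of a last exon, which is its FPKM as a percentage of the summed last-exon FPKM of its gene in the same library.

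The macrophages came from TLR4-WT mice and from TLR4-K730R and TLR4-K810R mice, CRISPR/Cas9 knock-in lines on a C57BL/6 background in which arginine replaces the named lysine in the cytoplasmic TIR domain of the LPS receptor TLR4. Thioglycolate had been injected before the lavage in every group, so the cells are elicited macrophages of a peritoneal harvest. In each genotype the cells of some libraries were mock-treated and those of others received LPS, a glycolipid of the gram-negative outer membrane, at 100 ng/ml for 6 h. Each of the 6 groups had 3 libraries. The labels do not say whether these are separate mice, so the p-values measure the spread between libraries, which may be technical. The ages of the mice are not given in the labels, and FPKM values cannot show the knock-in codons.

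The end of an mRNA is made by cleavage of the growing transcript and addition of a poly(A) tail, usually downstream of the hexamer AATAAA or its variant ATTAAA. A gene that can be cut at an upstream last exon or spliced on to a downstream one can make proteins with different C-termini, and messages with different 3′ untranslated regions, from the same promoter. In macrophages and lymphocytes such choices are best known for receptors and antibodies that exist as membrane-bound and soluble forms.

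The libraries listed 10919 to 12255 last exons with a summed last-exon FPKM of 256265 to 306507. Of the last exons followed here, 5476 to 5874 were listed in a mock library and 5279 to 5736 in an LPS library. Read counts are not in the files, so the depth behind a value is unknown. Of the 10 macrophage markers 9 had a last exon. Their summed FPKM was 11462 to 14686 in mock libraries and 7146 to 9970.1 in LPS libraries, without overlap, while T and NK cell markers (2 of 4 listed) stayed at or below 0.140. The 6 intestinal epithelium markers summed to 0.0717 to 0.670 FPKM in TLR4-WT mock libraries, against 39.9 to 66.6 for TLR4-K730R and 49.97 to 106 for TLR4-K810R mock libraries. After LPS they summed to 0.0928 to 9.66 FPKM in TLR4-WT, 45.3 to 53.2 in TLR4-K730R and 0 to 19.1 in TLR4-K810R, the last below its mock libraries. The 6 mesothelium and fibroblast markers summed to 25.04 to 41.6 FPKM in TLR4-WT, 50.3 to 58.3 in TLR4-K730R and 98.6 to 226 in TLR4-K810R mock libraries, and after LPS to 37.8 to 121, 42.5 to 43.0 and 91.1 to 108 in the same order. Neutrophil markers (4 of 5 listed, without Mpo) summed to 25.2 to 28.9 FPKM in TLR4-WT, 31.4 to 40.8 in TLR4-K730R and 27.3 to 40.4 in TLR4-K810R mock libraries and, after LPS, to 159 to 204 FPKM in TLR4-WT, 49.1 to 216 in TLR4-K730R and, for TLR4-K810R, 39.3 to 48.4. The 4 lung epithelium markers summed to 1.25 to 33.5 FPKM in TLR4-K810R LPS libraries and to at most 3.94 FPKM in the other groups. The part of these cells in the shares below was not tested, and in such bulk RNA a change in cells of a type and a change in RNA per cell cannot be told apart.

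The 3′ ends of 4 annotated last exons whose share differed after LPS are shown because these are the places where the transcripts described below stop. Each is the last 30 bases of the exon, 5′ to 3′ on the transcript strand, from the GENCODE M21 transcripts of GRCm38, with the AATAAA hexamer in capitals. Only ends with AATAAA or ATTAAA in these bases could be chosen, so a hexamer in all 4 was fixed by the choice.
Acpp, upstream last exon, chr9:104299000-104299029, minus strand: tttggtgctcAATAAAtattttcccactgg
Xaf1, most downstream last exon, chr11:72313704-72313733, plus strand: gctccaaAATAAActtatctctgcatcctt
St8sia4, upstream last exon, chr1:95618551-95618580, minus strand: gtaataaggAATAAAaggagtaataagacc
Gna13, downstream last exon, chr11:109401340-109401369, plus strand: tactgacatttAATAAAcatttataaatga
In these ends 14, 17, 15 and 13 bases follow the hexamer, in the order shown. AATAAA and ATTAAA were searched on the transcript strand in the last 40 bases. Over all 14638 annotated last exons matched, 53.9% held either hexamer, 43.3% AATAAA and 10.6% ATTAAA alone.

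The hexamer was less common at upstream ends. Either hexamer stood in 63.6% of the 2119 annotated last exons that were the most downstream of their gene, in 26.9% of the 3733 that lay upstream of another and in 65.1% of the 7638 that were the only last exon of their gene. Part of this went with the kind of transcript. Of the 6331 annotated last exons of these genes, 49.7% ended a protein-coding transcript and 29.1% ended only transcripts annotated as having a retained intron, against 76.7% and 7.63% of single last exons. Among ends of protein-coding transcripts alone the shares with a hexamer were 73.6% (1562 most downstream exons), 46.7% (1286 upstream exons) and 74.5% (5858 single exons). Among retained-intron ends they were 32.0%, 14.9% and 26.1%.

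Most of these genes had few ends. A pair of last exons was seen in 1850 genes, 3 in 760 genes and 4 or more in 659 genes, up to 12. In 2894 genes at least 2 of the ends were separate exons, and in 375 genes all ends overlapped, as when transcripts of the same exon stop at different bases. The median length of the last exons was 445 bases, against 778 bases in genes with 1 last exon. An exact match to an annotated last exon of the named gene was found for 6331 (69.2%), which carried 88.7% of the FPKM. A further 1520 lay within the named gene without such a match. Of these, 422 shared the splice acceptor and 573 the 3′ end of an annotated last exon, while 742 shared neither. Another 416 (3.78% of the FPKM) were annotated last exons of a different gene and 886 (0.878%) lay outside the named gene, so part of the apparent choice in these tables is between neighbouring genes. The ends seen in all 18 libraries, 3867 or 42.2%, held 96.7% of the FPKM. The 1760 ends seen in 1 library held 0.285%.

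In most genes a single end carried nearly all of the transcript. In the 1636 genes with at least 1 FPKM in every library, the leading last exon had a mean share of 95% or more in 1024 genes, 50 to 95% in 597 and under 50% in 15, with a median of 97.3%. The leading exon was the same in all 18 libraries in 1336 genes (81.7%). It was the most downstream one in 1027 (73.6%) of the 1395 genes whose ends lie on 1 strand. The mean of the group shares pointed to another leading exon after LPS in 37 genes of TLR4-WT, 33 of TLR4-K730R and 37 of TLR4-K810R macrophages. Among these, 6 genes did so in every genotype, 4 of them (Acpp, Ap1s2, Twsg1 and Gm49797) between the same pair of exons.

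For the tests a last exon needed a gene at 1 FPKM or more in every library and a mean share of 5 to 95%. Of the 9153 last exons, 4294 were in genes under 1 FPKM in some library, 2619 had a mean share under 5%, 1024 had one over 95%, and 153 were the mirror image of the other of 2 ends. The remaining 1063 last exons in 612 genes were tested, 812 of them annotated for the named gene, 129 unannotated within it, 79 annotated for another gene and 43 outside. The test was limma on the log2 ratio of the exon to the other last exons of its gene, each with 1 FPKM added, in a single fit of the 6 groups, with Benjamini-Hochberg adjustment over the 1063 exons. A last exon with an adjusted p below 0.01 is called changed. The filter used the mean share over all 18 libraries, so an exon could pass it through 1 condition alone. The mean share in mock or in LPS libraries was itself outside 5 to 95% for 236 of the 1063 exons, 45 of the 69 called averaged over the genotypes and 7 of the 8 called on each scale below. Such exons were chosen in part for their difference, and the counts of calls are no support for its size.

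LPS changed the share of a small set of last exons. Averaged over the genotypes, 69 of the 1063 exons (6.49%) in 50 genes were called, 32 with a higher and 37 with a lower share after LPS. For 4 of them, in Appl2, Calcoco1 and Tbc1d2, the mean share and the tested ratio moved in opposite directions, with shares that differed by 1.23 to 2.21 points. The median absolute difference in share was 10.3 percentage points over the 69 and 4.79 points over all exons tested. It was at least 10 points in 36 of them and under 5 points in 22. No overlap between the 9 mock and the 9 LPS libraries was seen for 12 of the 69, and for 12 (1.13%) of all exons tested. On genes with ends on 1 strand, the most downstream exon was higher in 15 and lower in 20 calls, and upstream exons were higher in 13 and lower in 14. The calls thus did not run in 1 direction along the gene. Leaving out TLR4-K810R mock replicate 2 or TLR4-WT LPS replicate 2 lowered the number of called exons most, to 42 and 44.

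The size of this set depended on how low values were treated. Because 1 FPKM is added to a minor exon and to a major exon alike, the ratio moves when the level of a gene changes at a constant share. With 0.1 FPKM added, 16 exons were called in all, with 2 FPKM in all split between exon and rest in proportion to the mean share 17, and on the arcsine square root of the share 13. Of the 69 calls, 16, 16 and 10 were among these. On the ratio and on all 3 other scales 8 exons in 5 genes were called. These were both ends of Acpp, both exons named Acat2, both exons named Olr1, Gpd2 and the downstream end of St8sia4. For Gpd2 and an exon named Acat2 the mock libraries lacked a value for an end, as given below. Of the 50 genes, 47 also changed in level, 16 higher and 31 lower, where 52.2% of 7404 genes did (14.1% higher, 38.1% lower). The median absolute log2 difference in gene level was 1.46 for the other 61 called exons, 1.13 for the 8 and 0.36 for the 994 not called. The level of single last exons was tested in the same way, log2(FPKM + 1) by limma, and 48.3% of 8081 exons passed. Median-of-ratios scaling of the libraries, which leaves shares as they are, moved the median gene-level difference from -0.28 to -0.03 on the log2 scale, so the levels below are best read against that shift. Differences in level are averaged over the genotypes unless a genotype is named.

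**Figure D1:**
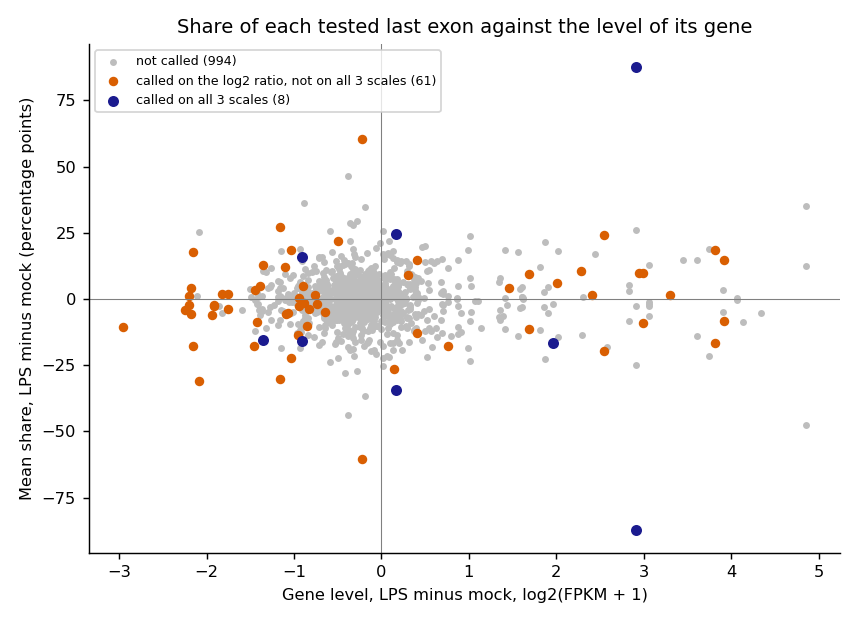
Each point is 1 of 1063 tested last exons, with the LPS minus mock difference in the level of its gene (x axis, log2(FPKM + 1), mean of the 3 genotypes) and in its mean share (y axis, percentage points). Grey points were not called, orange points were called on the log2 ratio but not on every scale, and the 8 dark blue points were called on all scales. The pair of dark blue points at the right, at 87.6 and -87.1 points, are the ends of Acpp.

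The widest share differences among the called exons were those of both ends of Acpp. Acpp encodes prostatic acid phosphatase, an enzyme made as a secreted form and as a form anchored in the membrane. Its upstream last exon (ENSMUSG00000032561, chr9:104299000-104300468, minus strand, 1469 bases) ends an annotated protein-coding transcript of 381 codons. Its downstream last exon (chr9:104287313-104291529, 4217 bases) has an annotated splice acceptor but runs 938 bases past the annotated end. Both ends are the first pair in the map of paired last exons.

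The upstream end of Acpp had a share of 0.392%, 0.453% and 8.78% in the TLR4-WT mock libraries and of 93.1%, 98.5% and 96.1% after LPS. In TLR4-K730R it had 9.37%, 6.997% and 0.457% in mock and 95.5%, 96.9% and 97.2% in LPS libraries. In TLR4-K810R it had 0.693%, 11.2% and 0.248% in mock and 69.7%, 95.5% and 84.1% in LPS libraries. Every LPS library thus lay above every mock library in each genotype. The mean of the mock libraries, 4.29%, was itself just under the 5% of the filter. Averaged over the genotypes the Acpp share rose by 87.6 points, with a log2 ratio of 6.22 ± 0.35 (SE, limma adjusted p = 1.73e-08), and no left-out library ended the call. Its downstream end fell by 87.1 points (adjusted p = 1.25e-07), and only in TLR4-K810R, without mock replicate 1, was that call lost (0.0116). The FPKM of the upstream end went from 0.00879 to 0.789 in mock to 38.7 to 94.2 in LPS libraries, while the downstream end fell by 1.53 ± 0.44 in log2 level averaged over the genotypes (adjusted p = 0.0080). Within genotypes its log2 difference did not pass, with -2.59 for TLR4-WT, -2.18 for TLR4-K730R and 0.17 for TLR4-K810R (± 0.77, limma adjusted p = 0.0143, 0.0332 and 0.897). That downstream end was at 3.42 to 10.01 FPKM in mock libraries and spread widely after LPS, from 0.00966 to 19.8. The summed level of Acpp rose by 2.91 ± 0.16 (SE) on the log2 scale.

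**Figure D2:**
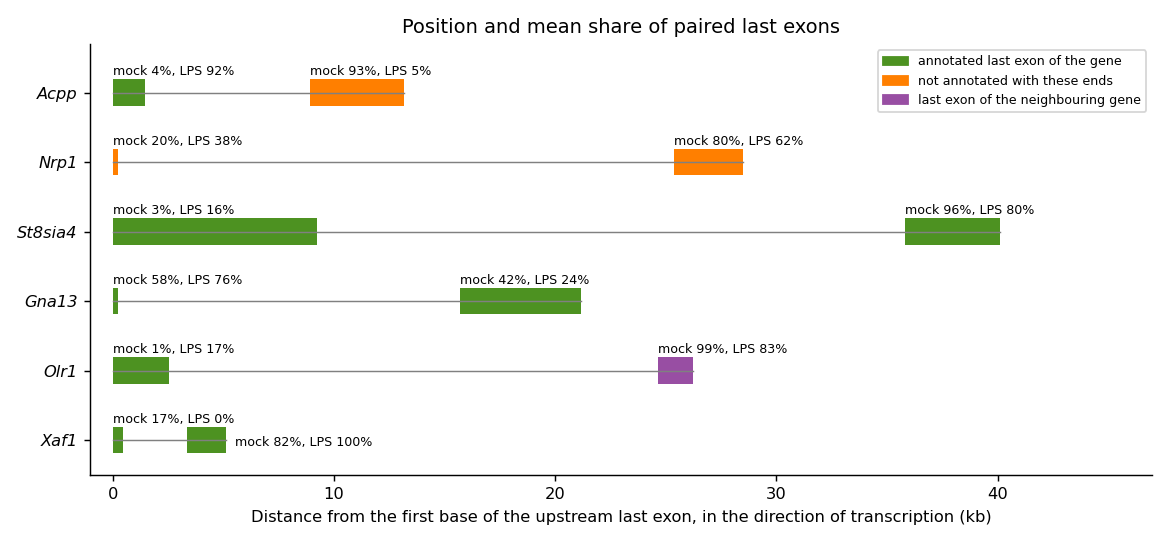
Position of paired last exons of 6 genes along the direction of transcription (x axis, kb from the first base of the upstream exon), with the mean share of each over 9 mock and 9 LPS libraries written beside it. Green exons are annotated for the gene, orange ones are not annotated with these ends and the purple one belongs to the neighbouring gene Clec7a. In Acpp the upstream exon goes from 4% to 92%.

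Other shifts were partial. Gna13 encodes Gα13, the α subunit of a heterotrimeric G protein that activates RhoA. Its upstream end (ENSMUSG00000020611, chr11:109380215-109380475, plus strand, 261 bases) closes an annotated transcript of 173 codons and its downstream end (chr11:109395914-109401369, 5456 bases) the transcript of 377 codons. The downstream share of Gna13 was 40.6%, 51.4% and 31.8% in TLR4-WT mock libraries and 28.0%, 25.2% and 24.8% after LPS. In TLR4-K730R it was 44.9%, 36.2% and 37.3% against 28.1%, 21.3% and 24.9%, and in TLR4-K810R 46.8%, 44.3% and 42.3% against 16.7%, 25.1% and 22.7%. No LPS library reached the lowest mock library. The averaged share fell by 17.6 points, with a log2 ratio of -1.16 ± 0.27 (SE, limma adjusted p = 0.00982). This call sat at the threshold: it was lost on leaving out any library but TLR4-WT mock replicate 3 (adjusted p 0.00905 to 0.0231), and on 2 of the other scales (0.0406 and 0.0418), but not on the arcsine scale (0.00743). The short upstream Gna13 exon rose by 1.14 ± 0.11 in log2 level, from 35.7 to 59.2 FPKM in mock to 81.3 to 122 in LPS libraries, while the downstream exon did not pass the test (log2 difference -0.02 ± 0.11).

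Nrp1 encodes neuropilin-1, a coreceptor for semaphorins and VEGF with membrane-bound and shorter soluble forms. Its upstream end (ENSMUSG00000025810, chr8:128477128-128477373, plus strand, 246 bases) is not annotated, and its downstream end (chr8:128502525-128505606, 3082 bases) starts at an annotated acceptor and runs 2243 bases past the annotated end. The downstream share of Nrp1 was 82.2%, 78.7% and 80.9% in TLR4-WT mock libraries and 58.8%, 53.0% and 62.4% after LPS. It went from 76.4%, 83.8% and 78.0% to 60.6%, 64.5% and 60.5% in TLR4-K730R. In TLR4-K810R it went from 82.7%, 77.7% and 79.1% to 69.3%, 64.8% and 64.9%. Mock and LPS libraries did not overlap in any genotype. The averaged share fell by 17.9 points (log2 ratio -1.27 ± 0.23, limma adjusted p = 0.0021), and the call held without each library and on the arcsine scale (0.00142), but not with the added value split by share (0.0151) or set to 0.1 FPKM (0.018). Both Nrp1 ends fell in level, the downstream one by 1.80 ± 0.11 and the upstream one by 0.53 ± 0.11 on the log2 scale, so the share of the upstream end grew as the gene as a whole fell.

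St8sia4 encodes a polysialyltransferase that adds polysialic acid to neuropilin-2 and other glycoproteins. Its upstream last exon (ENSMUSG00000040710, chr1:95618551-95627800, minus strand, 9250 bases, 266 codons) had a share of 0.251%, 4.57% and 3.60% in TLR4-WT mock libraries and of 17.9%, 20.4% and 24.7% after LPS. In TLR4-K730R it had 6.24%, 1.41% and 2.19% against 13.2%, 1.40% and 10.7%, and in TLR4-K810R 0.954%, 1.51% and 5.57% against 14.3%, 25.2% and 13.4%. The groups did not overlap in TLR4-WT and TLR4-K810R and did overlap in TLR4-K730R. The mean share of the exon in mock libraries was under the 5% of the filter, so it passed through the LPS libraries. Its p-values are therefore no support for the size of the rise. Averaged over the genotypes this St8sia4 exon rose by 12.8 points (limma adjusted p = 3.77e-05, and 0.0136 on the arcsine scale), and the call held without each of the 18 libraries in turn (up to 0.000161). Within genotypes it was called in TLR4-WT (limma adjusted p = 0.00323) and TLR4-K810R (0.00918), but without any LPS library or mock replicate 1 of TLR4-WT (up to 0.0219), or without any LPS library or mock replicate 1 or 2 of TLR4-K810R (up to 0.0505), it was not. The main, downstream end (chr1:95587682-95591964, 359 codons) fell by 15.6 points averaged over the genotypes (adjusted p = 3.77e-05, and 0.0076, 0.00511 and 0.00303 on the other scales), from 84.1% to 99.7% in mock to 71.8% to 89.3% in LPS libraries. It fell by 1.54 ± 0.13 in log2 level, and the upstream end stayed at 0.0252 to 0.813 FPKM in all libraries, too low for the test of level.

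Xaf1, an interferon-induced proapoptotic gene, moved towards its last annotated end. Its most downstream exon (ENSMUSG00000040483, chr11:72311956-72313733, plus strand, 273 codons) had a share of 99.6%, 72.5% and 58.3% in TLR4-WT mock libraries and of 99.7%, 100% and 100% after LPS. In TLR4-K730R mock libraries it had 98.2%, 64.8% and 98.99%, in TLR4-K810R mock libraries 92.1%, 97.1% and 52.6%, and in the 6 LPS libraries of both genotypes 99.8% to 100%. Every LPS library lay above every mock library, though by little where the mock share was high, and mock libraries of the same genotype differed widely, so the averaged rise of 18.3 points is uneven. It was called by limma on the ratio (adjusted p = 2.77e-07) and with both other added values (7.46e-05 and 0.000108), and not on the arcsine scale (0.0701). The exon upstream of it (chr11:72308607-72309061, 207 codons) was at 0.00681 to 5.41 FPKM in mock and at 0.00773 to 0.144 in LPS libraries, and the summed level of Xaf1 rose by 3.81 ± 0.22 (SE) on the log2 scale.

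Ap1s2 and Twsg1, named after their values were seen, had a different leading end after LPS in each genotype, with libraries that disagreed. Ap1s2 encodes a small subunit of the AP-1 clathrin adaptor, and both of its annotated ends close transcripts of 160 codons. Its downstream end (chrX:163932133-163933666, plus strand) had 46.5% to 79.2% of the sum in mock and 0% to 60.3% in LPS libraries (limma adjusted p = 0.00596, arcsine 0.0707). Both Ap1s2 ends fell, the downstream one from 5.39 to 10.2 FPKM to 0 to 1.46 FPKM. Twsg1, which encodes a secreted BMP-binding protein, had 100%, 100% and 100% at its upstream end in TLR4-WT mock libraries and 46.0%, 42.9% and 45.2% after LPS, both ends closing transcripts of 222 codons. In TLR4-K730R the same Twsg1 end had 29.2%, 49.3% and 75.8% in mock and 1.14%, 100% and 32.0% in LPS libraries, and the averaged difference did not pass (adjusted p = 0.183).

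**Figure D3:**
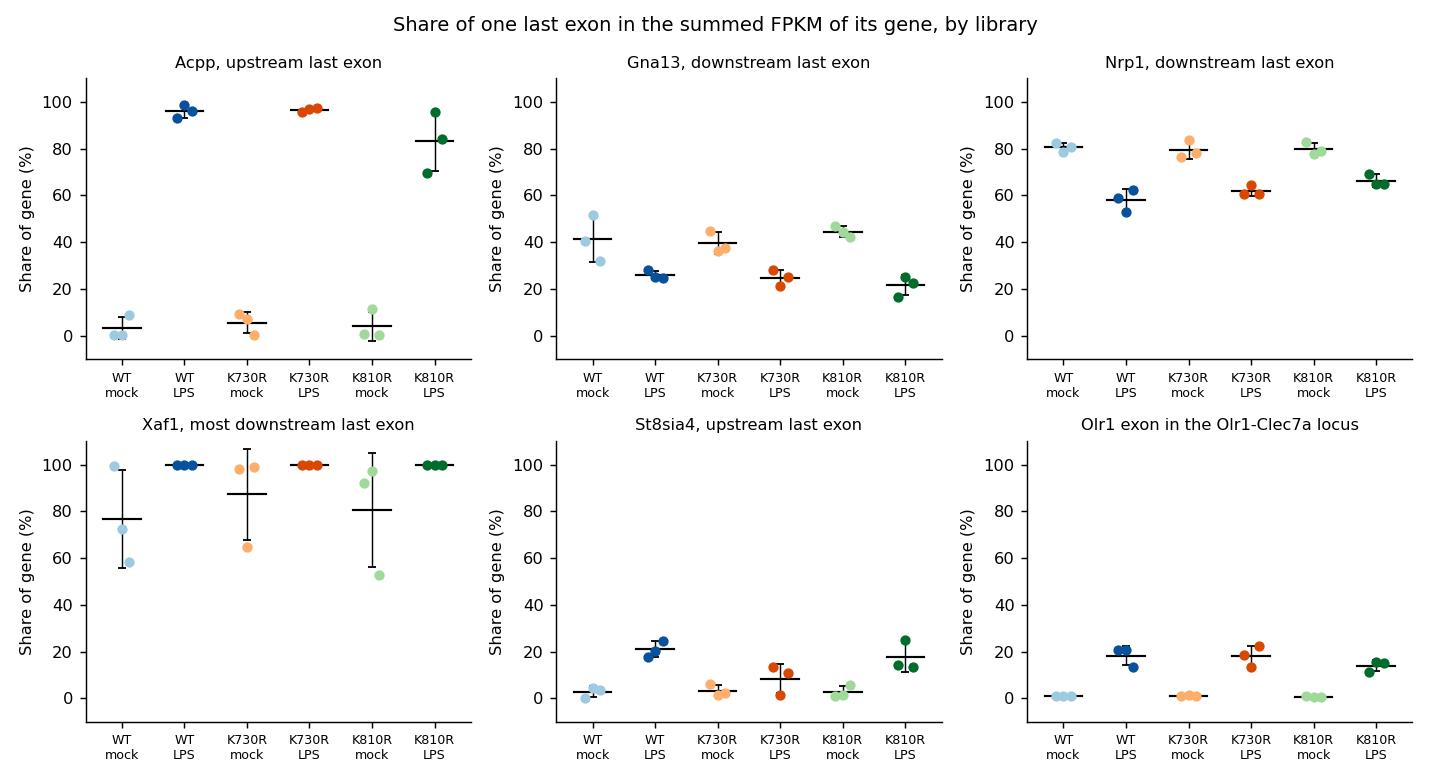
Share of 1 last exon in the summed last-exon FPKM of its gene (y axis, %), with 1 point per library, the mean as a bar and the SD as a whisker (n = 3) in each of the 6 groups. The upstream end of Acpp is below 12% in every mock library and above 69% in every LPS library. The Gna13 and Nrp1 ends differ by less, with no overlap between mock and LPS libraries.

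Several called pairs joined neighbouring genes. The pair named Olr1 holds the last exon of Olr1, which encodes the oxidised LDL receptor LOX-1 (ENSMUSG00000030162, chr6:129485244-129487807, minus strand, 363 codons), and the last exon of Clec7a, which encodes the β-glucan receptor Dectin-1 (chr6:129461591-129463167). The Olr1 exon had 0.823%, 0.988% and 0.827% of the sum in TLR4-WT mock libraries and 20.7%, 20.7% and 13.4% after LPS, and over all libraries 0.504% to 1.35% in mock and 11.3% to 22.2% after LPS. Both exons changed: Olr1 rose from 0.960 to 3.12 FPKM in mock to 11.6 to 25.99 after LPS, and the Clec7a exon fell from 180 to 313 FPKM to 77.5 to 120. The averaged difference was 15.9 points (limma adjusted p = 1.25e-07), and it was called on every scale, though the Olr1 exon passed the filter on share through the LPS libraries alone. In TLR4-K810R the call of the Clec7a exon was lost without mock replicate 1 (0.0101). This is a difference between 2 genes listed under 1 gene number, not a choice of ends within a transcript.

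The exons named Acat2 are alike in this. Acat2 encodes a cytosolic acetyl-CoA acetyltransferase, and the exon at chr17:12923813-12924830 (minus strand) is the last exon of its neighbour Acat3, each ending a transcript of 397 codons. The Acat3 exon was listed at 0 in all 9 mock libraries and at 1.38 to 2.91 FPKM in the LPS libraries (averaged adjusted p = 4.75e-07). It thus passed the filter on share through the LPS libraries alone, against mock libraries without a value, and its p adds nothing to that pattern. Its share after LPS was 25.1%, 27.3% and 26.2% in TLR4-WT libraries. TLR4-K730R libraries had 27.7%, 22.8% and 32.5%, and those of TLR4-K810R 21.2%, 20.1% and 19.2%, all of them above the mock libraries. The Acat2 exon (chr17:12942890-12944032) went from 89.2% to 100% in mock to 35.4% to 80.8% in LPS libraries (adjusted p = 0.000101) and fell by 0.41 ± 0.09 in log2 level. In TLR4-K810R the call of the Acat3 exon was lost without any LPS library or mock replicate 1 (adjusted p up to 0.0123). A shorter end that overlaps the Acat3 exon, listed in 2 TLR4-K810R LPS libraries, took 43.4% and 23.9% of the sum there.

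Gpd2, the mitochondrial glycerol-3-phosphate dehydrogenase, lost share only to an end on the opposite strand outside the gene (chr2:57283007-57283850). That end was listed in the 9 LPS libraries, at 3.78 to 7.42 FPKM, and in no mock library. The annotated Gpd2 end (ENSMUSG00000026827, chr2:57367352-57370719, plus strand) rose from 6.64 to 8.23 FPKM to 23.7 to 28.7 FPKM. Its share went from 100% in mock to 76.5% to 87.7% in LPS libraries (limma adjusted p = 0.0024). The Gpd2 end thus passed the filter on share through the LPS libraries alone. The other end had no value in the mock libraries, so the p adds nothing to that pattern. Another end on the opposite strand was listed under Ssh1, which encodes the cofilin phosphatase slingshot-1. An unannotated end on the strand opposite to Ssh1 (chr5:113947375-113947591) had 72.9% to 86.2% of the sum in mock and 0% to 66.0% in LPS libraries (adjusted p = 0.00289), falling from 11.7 to 18.7 FPKM to 0 to 6.35 FPKM, and the annotated end of Ssh1 did not pass the test of level (log2 difference -0.08 ± 0.18). Pex14, a peroxisomal import protein, was chosen after its values were seen. An exon of the antisense RNA Gm13205 (chr4:148947492-148947905) was listed under its number at 9.50 to 11.5 FPKM in 6 of 9 LPS libraries, with 85.8% to 93.8% of the sum, and at 0 in the 12 others, so it too passed the filter through LPS libraries alone and is given with no test. It was listed in all 3 TLR4-WT LPS libraries, in 1 of TLR4-K730R and in 2 of TLR4-K810R.

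The rest of the exons named by the rule were minor ends or their counterparts in genes whose level changed. Arrb1, which encodes β-arrestin 1, was called in TLR4-WT (adjusted p = 0.00122), where the share of the 44-base end of a retained-intron transcript went from 99.4%, 99.3% and 96.0% to 80.6%, 83.5% and 95.2% and its FPKM from 26.7 to 29.95 down to 3.35 to 4.003. Lacc1, an enzyme of purine metabolism in macrophages, was called in TLR4-WT with 92.8%, 88.5% and 90.7% against 96.8%, 99.3% and 97.0% at an unannotated end 1727 bases past the annotated one (adjusted p = 0.00906). Cdk5 was called there on a 52-base retained-intron end that stayed at or under 0.496 FPKM in the 6 libraries (adjusted p = 0.00404).

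Averaged over the genotypes the Arrb1 end (limma adjusted p = 7.69e-05) and the Lacc1 end (0.000101) were called without each of the 18 libraries in turn (up to 0.000304 and 0.000403), but not on the arcsine scale (0.168 and 0.0510). The averaged call of the Cdk5 end (0.00586) was lost on leaving out any 1 of 10 of the 18 libraries (up to 0.0136). In TLR4-WT alone none of the Arrb1, Lacc1 and Cdk5 calls held on the arcsine scale (0.223, 0.484 and 0.557), and each was lost on leaving out certain libraries of TLR4-WT. These were LPS replicate 1 for Arrb1 (adjusted p = 0.0112), any but LPS replicate 3 for Lacc1 (up to 0.0541), and LPS or mock replicates 1 and 2 for Cdk5 (up to 0.0326). In TLR4-K730R, an unannotated end of the uncharacterised gene Gm21188 (chr13:120043425-120043902, minus strand) had 56.8%, 28.7% and 45.6% in mock libraries and was listed at 0 after LPS (adjusted p = 0.00651). That p is against LPS libraries without a value and adds nothing to the pattern. This Gm21188 call was lost without any library but mock replicate 2 (up to 0.0473).

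The lists of pathway genes gave few testable ends. Of 20 cytokine genes, 6 had 2 or more last exons and only Ccl4, which encodes the chemokine MIP-1β, had ends in the tested range. Its annotated last exon (ENSMUSG00000018930, chr11:83664294-83664683, plus strand) had 81.6%, 79.9% and 81.4% in TLR4-WT mock libraries and 99.5%, 98.9% and 97.8% after LPS. Over all libraries its share was 67.4% to 100% in mock and 95.5% to 99.7% after LPS, and its level went from 6.68 to 12.6 FPKM to 101 to 243 FPKM. The other Ccl4 ends lie outside the gene, and the largest (chr11:83658127-83658383) was at 0 to 2.13 FPKM in mock and 0 to 2.44 FPKM in LPS libraries. Both tested Ccl4 ends were called averaged over the genotypes (limma adjusted p = 8.04e-06 and 4.07e-06), and neither on the arcsine scale (0.117 and 0.168). The annotated end was over the 95% of the filter in every LPS library and passed it through mock libraries alone. In TLR4-WT the call of the annotated Ccl4 end was lost without LPS replicate 1 (0.0119).

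Of 40 interferon and STAT genes, 16 had 2 or more last exons and 4 genes with 6 ends were tested, of which 5 ends in Ifih1, Ddx58 and Oas3 were called averaged over the genotypes, where 6.49% of all tested exons were. Ifih1 encodes MDA5 and Ddx58 encodes RIG-I, both cytosolic sensors of viral RNA. The 3′ end of Ifih1 at an annotated acceptor, 2445 bases past the annotated end (chr2:62593353-62598088, minus strand), had 50.6%, 98.8% and 97.2% in TLR4-WT mock libraries. The mock libraries of TLR4-K730R had 45.7%, 43.7% and 89.4%, and those of TLR4-K810R 94.2%, 97.2% and 57.6%. After LPS it had 98.8% to 99.5% in all 9 libraries (limma adjusted p = 2.05e-05). The counterpart of Ifih1 was a retained-intron end at 0 to 4.87 FPKM in mock and at most 0.000494 FPKM in LPS libraries. In Ddx58, the 2330-base main end had 33.0% to 95.8% in mock and 90.7% to 98.7% in LPS libraries (adjusted p = 0.000567), and a 70-base end of a 707-codon transcript 0.471% to 56.5% against 0.328% to 2.84% (8.86e-06). For Oas3, an oligoadenylate synthetase of the RNase L pathway, TLR4-WT mock replicate 3 alone had 24.6% at the annotated end, and the other mock libraries had 93.2% to 99.7% and the LPS libraries 99.5% to 99.9% (adjusted p = 0.00259). None of these 5 ends was called on the arcsine scale (0.0588 to 0.444), and both Ifih1 ends were with the other added values (0.000774 to 0.00281). In TLR4-K730R the call of the main Ifih1 end was lost without LPS replicate 3 or mock replicate 1 or 2 (up to 0.0132). The call of the 70-base Ddx58 end was lost there without LPS replicate 3 or mock replicate 2 or 3 (up to 0.0168), and in TLR4-K810R without LPS replicate 2 (0.0208).

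Zbp1, a sensor of Z-form nucleic acids that triggers necroptosis, showed the reverse case: a large change in level with both ends moving together. Its upstream end (ENSMUSG00000027514, chr2:173213735-173213909, minus strand, 187 codons) rose by 4.38 ± 0.08 and its downstream end (chr2:173206612-173207226, 411 codons) by 3.61 ± 0.26 on the log2 scale, averaged over the genotypes. The upstream Zbp1 end rose by 3.40 in TLR4-WT libraries, by 4.98 in those of TLR4-K730R and by 4.77 for TLR4-K810R (± 0.13), and the downstream end by 2.90, 4.42 and 3.50 (± 0.45). The difference between these responses was not tested. In mock libraries the level of the upstream Zbp1 end was lower by limma in TLR4-K730R (log2 difference from TLR4-WT -1.69, adjusted p = 1.19e-05) and TLR4-K810R (-1.55, 1.03e-05), where 25 and 112 of 8081 last exons were called. The downstream share was 28.3%, 29.1% and 24.0% in TLR4-WT mock and 19.2%, 23.4% and 23.7% in TLR4-WT LPS libraries, and 17.5% to 42.4% against 4.76% to 27.0% over all libraries. The difference in share did not pass the test (-5.16 points, adjusted p = 0.187). Without the lowest value, from a TLR4-K810R library, the LPS libraries of Zbp1 lie between 19.2% and 27.0%.

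**Figure D4:**
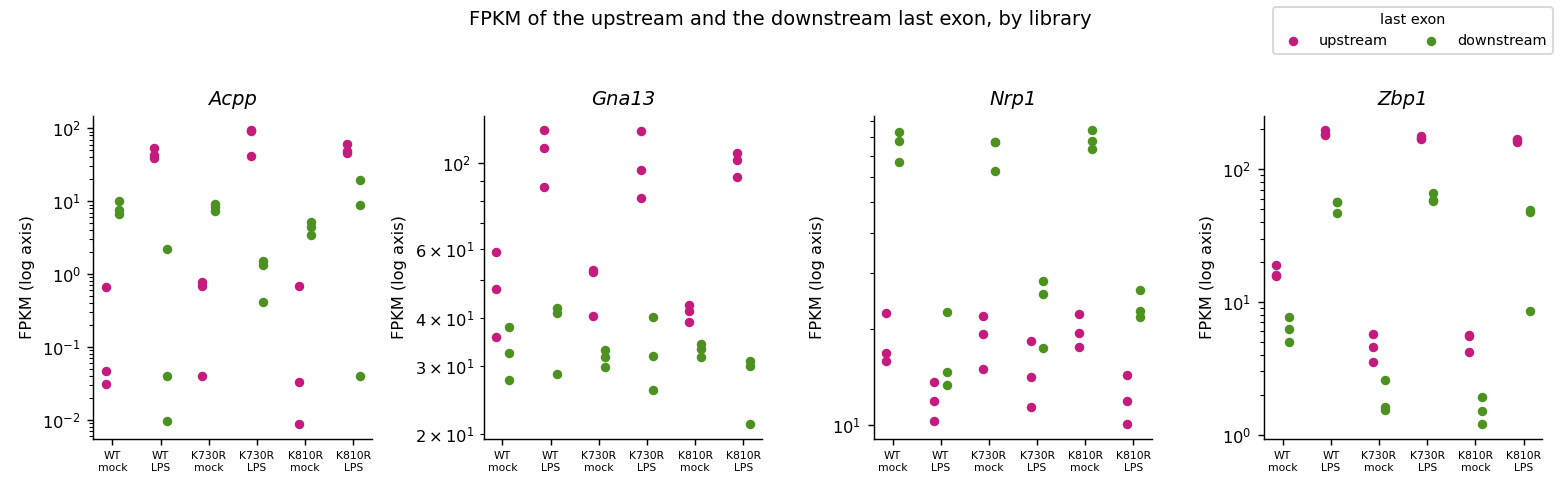
FPKM of the upstream (magenta) and downstream (green) last exon of Acpp, Gna13, Nrp1 and Zbp1, with 1 point per library in the 6 groups and a log axis in each panel. After LPS the upstream end rises in Acpp and Gna13, both ends fall in Nrp1 and both rise in Zbp1.

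The TLR4 signalling list had 8 of 30 genes with 2 or more last exons, and 4 ends of Irf7 and Ly96 were tested with none called, where 6.49% of all tested exons were, so a count of 0 among so few says little of the list. Irf7, the interferon regulatory factor of the late type I interferon response, had its annotated end at 100% in all 9 mock libraries. In 6 of 9 LPS libraries an unannotated end with the same last base (chr7:141262706-141262906) was listed at 45.8% to 69.2%, and in the other 3 at 0, so libraries of the same group disagreed and the test did not call it (averaged adjusted p = 0.591). Ly96, the MD-2 subunit of the LPS receptor, had 72.0% to 100% at its annotated end in mock and 75.7% to 100% in LPS libraries (adjusted p = 0.390). Of the NF-κB subunits and inhibitors 5 of 17 genes had 2 or more ends and none was testable, because the leading end held over 95% in 4 genes and 1 gene was under 1 FPKM.

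A list of 27 other receptors and binding proteins known to have soluble forms, without Nrp1, gave no tested end. Of these genes, 11 had 2 or more last exons. The leading end held a mean share over 95% in 6 of them (Il1rap, Il6ra, Il18bp, Tnfrsf1b, Csf1r and Fcgr2b), and 5 genes were under 1 FPKM in some library (Ifnar2, Ifngr1, Flt1, Kdr and Cd55). For Fcgr2b, the inhibitory Fc receptor, the leading end had 98.9% to 99.9% in mock and 98.1% to 100% in LPS libraries. A soluble form made by cutting the protein, as for Tnfrsf1b and Csf1r, would not show in these values.

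The factors that make 3′ ends were themselves followed by the summed level of their genes. Of 38 factors, 27 were expressed enough to test. Averaged over the genotypes limma called 4, all with a lower level after LPS (Papolg, Cpsf1, Cpsf4 and Sympk), where 52.2% of all 7404 genes tested were called and 38.1% were called lower. The median log2 difference of the 27 was -0.06 against -0.28 over all genes. With median-of-ratios scaling 8 were higher (Cpsf2, Snrpa, Elavl1, Snrpc, Xrn2, Ssu72, Cpsf7 and Celf1) and 1 lower (Cpsf1), where 22.2% of all genes were called higher and 23.1% lower. The median was then 0.21 against -0.03, and only the fall of Cpsf1, by 0.62 or 0.32 when scaled, kept its call and direction in both. The last exons of 3 of these factors were tested (6 ends of Sympk, Cpsf1 and Scaf4), and their lowest adjusted p averaged over the genotypes was 0.436, for Cpsf1. The only tested end of an acetylation enzyme (Kat5, 1 of 9 such genes with 2 or more ends) was not called, with 54.3% to 100% in mock and 43.9% to 100% in LPS libraries (adjusted p = 0.941).

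Within single genotypes LPS changed 16 last exons in TLR4-WT (1.51% of those tested), 15 in TLR4-K730R (1.41%) and 10 in TLR4-K810R (0.941%). These counts fell to 6 in each genotype with 0.1 FPKM added or on the arcsine scale, and to 5, 2 and 0 with only the 2 groups compared in the fit. The mock and LPS libraries did not overlap for 13, 13 and 9 of these, where 14.8%, 17.0% and 14.2% of all tested exons do not. In all 3 genotypes 8 exons in 5 genes were called: both Acpp ends, the Acat3 exon, both exons of the Olr1 and Clec7a pair, both Xaf1 ends and the main end of Cd300a, an inhibitory receptor of myeloid cells. On the arcsine scale both Acpp ends, the Acat3 exon and the 2564-base exon of the Olr1 pair were called in all 3 genotypes, and neither the Xaf1 ends nor the Cd300a end in any. The Cd300a end was named after its values were seen, and the arcsine scale did not call it averaged over the genotypes (0.313). It had 99.1% to 99.6% in mock and 58.7% to 100% in LPS libraries as the level of the gene fell by 2.96 ± 0.08. The Cd300a end thus passed the filter on share through LPS libraries alone. The count fell to 9 in TLR4-WT without LPS replicate 1 and to 6 in TLR4-K810R without mock replicate 1. In at least 1 genotype 21 exons in 14 genes were called, and 20 of the 21 had the same sign of share difference in each genotype. The exception was the Cdk5 end.

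**Figure D5:**
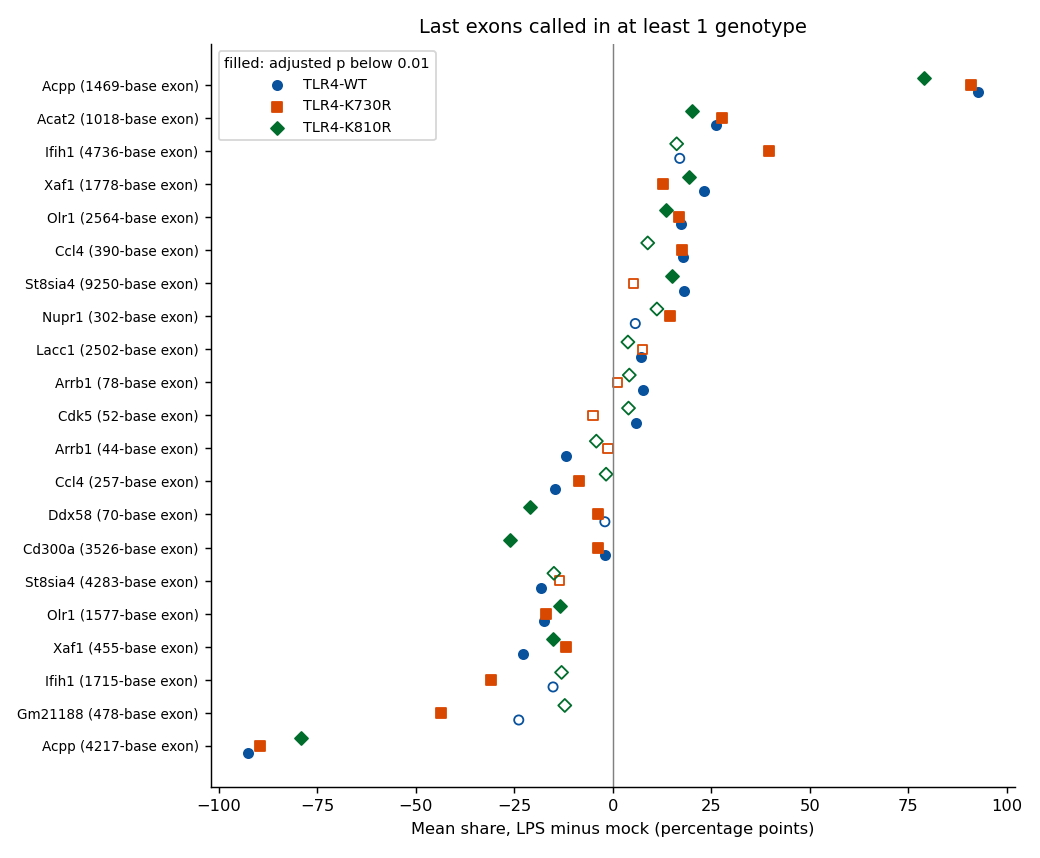
Difference in mean share, LPS minus mock (x axis, percentage points), of the 21 last exons called in at least 1 genotype, with TLR4-WT as circles, TLR4-K730R as squares and TLR4-K810R as diamonds. Filled symbols have a limma adjusted p below 0.01. Exons are named by the gene number of the files and their length, so the 1018-base exon named Acat2 is that of Acat3 and the 1577-base exon named Olr1 that of Clec7a. The 3 symbols of most rows lie on the same side of zero.

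The response of a last exon to LPS was also compared directly between genotypes. No exon was called for TLR4-K730R against TLR4-WT or TLR4-K810R against TLR4-WT (0 of 1063 by limma in both, with 56 and 62 at an unadjusted p below 0.05, and 0 in each alternative fit). The lowest adjusted p was 0.768 and 0.235. The median SE of such a difference was 0.86 on the log2 scale of the ratio, so its 95% half-width was 1.68. For Acpp the upstream end rose by 6.99 ± 0.60 (SE) in TLR4-WT macrophages, by 7.02 ± 0.60 in those of TLR4-K730R and by 4.64 ± 0.60 in those of TLR4-K810R, and the difference between TLR4-K810R and TLR4-WT, -2.35 ± 0.85, did not pass (adjusted p = 0.753).

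Neither mutant differed from TLR4-WT in any last exon share at the threshold. In mock libraries 0 exons were called for TLR4-K730R (72 at an unadjusted p below 0.05) and 0 for TLR4-K810R (74), and after LPS 0 and 0 (40 and 59), in the limma fit and in each alternative fit of all libraries. Without TLR4-WT mock replicate 1 the counts in mock libraries were 1 and 2, and without TLR4-K730R LPS replicate 2 the count for that mutant after LPS was 1. The libraries did not overlap for 8.18%, 10.5%, 9.03% and 9.97% of the exons in these comparisons. The median SE was 0.60, so the 95% interval of a difference reached 1.19 to either side on the log2 scale of the ratio. The lowest adjusted p of each comparison belonged to exons chosen here after their values were seen. The sums of intestinal epithelium, mesothelium and neutrophil markers given above differ between genotypes in mock or LPS libraries. The sum of lung epithelium markers reached higher in TLR4-K810R LPS libraries than in other groups. The part of all these markers in the comparisons was not tested.

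On the log2 ratio the closest of these was Pacs1, which encodes a sorting protein of the trans-Golgi network. Its retained-intron end (ENSMUSG00000024855, chr19:5138478-5139065, minus strand) had 54.0%, 54.2% and 54.1% in TLR4-WT mock libraries. TLR4-K730R mock libraries had 40.7%, 61.3% and 52.3%, and TLR4-K810R ones 26.1%, 3.03% and 4.42% (adjusted p = 0.0941 for TLR4-K810R against TLR4-WT). After LPS the Pacs1 end had 52.3%, 51.5% and 59.3%, 65.4%, 49.9% and 63.2%, and 45.5%, 11.5% and 13.6% in the same order of genotypes. The TLR4-K810R libraries were thus the lowest with and without LPS. For Zc3h7a, an RNA-binding zinc finger protein, an 89-base retained-intron end had 63.8%, 65.8% and 71.3% in TLR4-WT and 5.49%, 2.07% and 1.59% in TLR4-K810R LPS libraries, with an adjusted p of 0.735 for that difference on the log2 ratio. Over all exons of this comparison, the lowest limma adjusted p was 0.0184 on the arcsine scale and 0.0309 with 0.1 FPKM added. Both are lower than on the ratio and above the threshold. In TLR4-K730R against TLR4-WT the lowest values on the ratio were 0.452 in mock (an exon of Irak1, the kinase downstream of MyD88, listed under the number of Mir718) and 0.522 after LPS (Hnrnpa2b1).

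Use of the downstream end was also averaged over genes. Over the 560 tested genes whose ends lie on 1 strand, the mean share of the most downstream last exon was 56.3% to 58.1% in mock libraries (median 57.0%) and 55.8% to 58.3% in LPS libraries (median 56.2%). The means differed by -0.650 points (LPS minus mock), and the SD of single libraries within a group was 0.728 points. By group it was 57.0% ± 0.539 in TLR4-WT mock and 56.9% ± 1.19 in TLR4-WT LPS, 56.8% ± 0.414 against 56.2% ± 0.248 for TLR4-K730R, and 57.5% ± 0.977 against 56.2% ± 0.526 for TLR4-K810R (SD, n = 3). The mock and LPS libraries overlapped in each genotype, and the difference was not tested. In the 228 genes at 5 FPKM or more the direction turned in TLR4-WT (55.3% in mock and 56.6% in LPS libraries) and TLR4-K730R (55.1% and 55.5%), and the mean was 56.5% and 54.5% in TLR4-K810R.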

How the data were processed

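RNA-seq of 18 macrophage libraries was used, with 1 deposited table per library. The authors gave each row an event (here TTS, a last exon), its coordinates, a gene number and an FPKM value. The aligner, assembler and counter are not given in the sources used here. The labels name the build hg18, but the coordinates match mouse GRCm38 (GENCODE M21), which was used for annotation. An event without a row was taken as 0, and 79.5% of all last exons matched an annotated one exactly. Values carry no read counts, so depth and counting error are unknown.

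Shares were computed per library in Python 3.11.15 (pandas 2.3.3). Last exons of genes with a sum of at least 1 FPKM in every library and a mean share of 5 to 95% were tested as log2((exon + 1)/(other exons of the gene + 1)), with limma 3.58.1 in R 4.3.3 (empirical Bayes with intensity trend, 6 group means, Benjamini-Hochberg adjustment, adjusted p below 0.01). Levels were tested as log2(FPKM + 1). The filter and fit of the shares were tested on simulated data with known changes in the LPS libraries, and the other steps were not. Groups come from the sample labels. The comparisons were LPS against mock within and averaged over the genotypes, each mutant against TLR4-WT and the difference in LPS response. Named exons were those called with no overlap between groups and the largest share difference, at most 10 for TLR4-WT and for the average and 5 for other comparisons, 1 per gene, with called members of 7 gene lists and up to 4 others per list. Members, lists and rules were chosen with earlier results of these data known. Added values, scales, filters, strand and position of events, merging of overlapping ends, the variance model, a replicate block, the libraries fitted and each library left out were varied. The proportional added value and the restriction to exons annotated for the named gene were chosen after seeing the data. A result that the rule for named exons selected is not reported here.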

Additional observations from a re-analysis of the deposited data

How the results depend on the processing

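The number of last exons called for LPS was 16 in TLR4-WT, 15 in TLR4-K730R, 10 in TLR4-K810R and 69 averaged, and is given below in that order. It was 6, 6, 6 and 16 with 0.1 FPKM added, 6, 6, 6 and 13 on the arcsine scale, and 6, 6, 6 and 17 with the added value in proportion to the mean share. With genes at 5 FPKM or more it was 6, 7, 3 and 23, with genes above 0 it was 37, 30, 27 and 150, and with ends within the named gene 8, 10, 6 and 42. With annotated ends of the named gene it was 4, 4, 4 and 28, and with ends within the gene and the proportional value together 2, 2, 1 and 8. At an adjusted p below 0.05 it was 41, 26, 23 and 116. With only the groups compared in the fit it was 5, 2 and 0 in the genotypes, where fewer libraries estimate the spread. Merging overlapping ends and dropping the intensity trend moved no count by more than 1.5 times. Leaving out each library gave 9 to 17, 11 to 16, 6 to 12 and 42 to 58, with the lowest counts without TLR4-WT LPS replicate 1, TLR4-K810R mock replicate 1 and, averaged, TLR4-K810R mock replicate 2. For the mutants against TLR4-WT it gave 0 to 1 and 0 to 2 in mock and 0 to 1 and 0 after LPS. Of 56 calls of named exons 0 reversed direction under any alternative in which they were computed, and 40 held without each library. On the arcsine scale 23 held, with 0.1 FPKM 27, with the proportional value 27 and with only the groups compared 28. With ends within the named gene and the proportional value together 32 could be computed and 11 held.

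The replicate numbers are shared between groups, but libraries with the same number did not deviate together (r -0.118 to 0.130, median -0.015, against -0.150 to 0.165, median 0.013, for different numbers). With the replicate number as a block, 13, 15, 10 and 60 exons were called and 51 of the 56 named calls held. Median-of-ratios scaling turned the split of gene levels after LPS from 1041 higher and 2823 lower to 1640 and 1708, and of single last exons from 1104 and 2803 to 1674 and 1685. The mean difference in use of the most downstream end was -0.638 points as a median over genes, -0.139 points in 228 genes at 5 FPKM or more and -0.566 points with overlapping ends merged. As a median over genes it turned upwards in TLR4-WT (72.97% in mock and 73.95% in LPS libraries), with 71.96% against 71.97% for TLR4-K730R and 73.9% against 71.0% for TLR4-K810R. FPKM of an end rests on how reads were assigned to assembled transcripts, which cannot be checked without reads, and an end with low FPKM may hold few of them.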
